A study of Rattus norvegicus with 15 samples.

Results

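The genes of glycolysis, of pyruvate entry into the mitochondrion and of the citric acid cycle were examined in the inferior colliculus (IC), the auditory midbrain nucleus where audiogenic seizures begin. The list holds 42 genes, set in pathway order from glucose uptake to the citric acid cycle. A few genes of the pentose phosphate pathway and of glycogen turnover stand at its end. It was chosen by name with earlier results of these data known, so its counts beside those of all genes are a description. Of the 42 genes, 40 were measured under their own symbol, among 14506 genes in all, and *Fh* and *Pgd* are not analysed here. Each gene is represented by its probe set with the highest mean over the 15 arrays, and the values are log2 signals.

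The arrays compared the Wistar audiogenic rat (WAR), a strain selected for seizures evoked by loud sound, with Wistar albino rats, all male and 12 weeks old. Rats exposed to auditory stimulation, whose IC was taken after the seizures of the WAR, gave 5 arrays of WAR (WAR S) and 2 of Wistar (Wistar S). Naïve animals, not exposed to the sound, gave 4 arrays of each strain (WAR N and Wistar N). The paper describes its stimulated Wistar controls as free of seizures, so strain and seizure cannot be told apart in the stimulated arrays. The labels name a Brazilian provider for WAR and a commercial breeder for Wistar, whereas the methods of the paper name a Brazilian animal facility for both. If the labels hold, strain and provider cannot be told apart. The sources title each array a biological replicate but do not state outright that each is a different rat, and the p-values measure only the spread between these arrays. RNA came from whole IC tissue, in which fewer cells of a type and less RNA per cell cannot be told apart.

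Glycolysis splits glucose into pyruvate in the cytosol, and hexokinase, phosphofructokinase and pyruvate kinase catalyse its irreversible steps. Pyruvate is reduced to lactate by lactate dehydrogenase, or enters the mitochondrion, where the pyruvate dehydrogenase complex turns it into the acetyl-CoA that feeds the citric acid cycle. Brain tissue relies on glucose as its main fuel, and the auditory midbrain is known for a very high rate of glucose use.

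Some features of the arrays touch the results below. Stimulated arrays shared identical values in 2675 to 3286 probe sets for each of their 21 pairs, naïve arrays in 2 to 13 for each of 28 pairs, and no stimulated array shared any with a naïve array. The values were therefore read as coming from separate normalizations, and WAR was set against Wistar only inside each kind of array. Repeated values make the spread of the stimulated arrays smaller, and 18 of the 40 genes held a repeated value among them. Among the naïve arrays, the first principal component carried 62.8% of the variance and placed Wistar N replicate 1, at −23.2, with the 4 WAR N arrays, at −22.7 to −12.7, and away from Wistar N replicates 2, 3 and 4, at 32.0 to 36.9. The naïve results are therefore also given against Wistar N replicate 1 alone, where a single array is assumed to vary like the other groups. Markers of neurons such as *Snap25*, *Syt1* and *Slc17a6* were bright in every array, at percentiles 99.9, 98.6 and 97.0 of all genes.

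*Hk1* and *Pfkm* were the only members whose lower values in WAR N passed the test under all 28 alternative settings of the naïve comparison, so their promoters are printed here with 2 motifs marked. The windows run from 250 bases before to 50 bases after the annotated start, 5′ to 3′ on the strand of the gene, from the RefSeq annotation of the rat assembly GRCr8. Capitals mark matches, on either strand, to ACGTG, the core of the hypoxia response element, which also lies inside the E-box CACGTG, and to GGGCGG, the GC box. The upstream *Hk1* window (chr20:30874765-30875064, minus strand) holds neither motif, whereas the downstream *Hk1* window (chr20:30842023-30842322, minus strand), which has a GC content of 69.3% against 50.7%, holds 1 hypoxia core near its 5′ end and 2 overlapping GC boxes. The *Pfkm* window (chr7:131113849-131114148, plus strand) holds 1 hypoxia core and no GC box.
Hk1 upstream window: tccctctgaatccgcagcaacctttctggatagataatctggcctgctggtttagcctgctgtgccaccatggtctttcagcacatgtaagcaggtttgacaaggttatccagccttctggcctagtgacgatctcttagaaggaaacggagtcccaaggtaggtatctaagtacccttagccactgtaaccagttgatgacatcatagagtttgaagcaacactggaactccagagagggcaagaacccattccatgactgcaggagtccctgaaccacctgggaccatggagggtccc
Hk1 downstream window: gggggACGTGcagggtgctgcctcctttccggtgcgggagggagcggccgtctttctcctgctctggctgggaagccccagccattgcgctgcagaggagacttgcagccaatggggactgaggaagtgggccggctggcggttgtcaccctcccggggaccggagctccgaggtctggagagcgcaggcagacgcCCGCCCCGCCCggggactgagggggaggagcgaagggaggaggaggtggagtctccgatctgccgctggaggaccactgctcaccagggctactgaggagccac
Pfkm window: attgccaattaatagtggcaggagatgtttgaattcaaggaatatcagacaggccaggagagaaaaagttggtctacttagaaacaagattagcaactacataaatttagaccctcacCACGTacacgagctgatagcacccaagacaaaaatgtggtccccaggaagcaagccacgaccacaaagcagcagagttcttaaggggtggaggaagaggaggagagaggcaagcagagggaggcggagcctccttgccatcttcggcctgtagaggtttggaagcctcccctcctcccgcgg

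A promoter window was at hand for 37 of the 40 measured members, 41 windows in all. ACGTG occurred in 17 of these (41.5%), against 19.3% of the 33469 promoter windows of the same length in the whole annotation, and GGGCGG occurred in 25 (61%), against 33.1%. The windows of the whole annotation were not matched to those of the members in GC content or in signal of the gene. The shares lay close together for the members called lower in WAR N and for the others, with no test made. Of the 21 windows of the lower members 42.9% held ACGTG, beside 40% of the 20 windows of the other members, and GGGCGG was in 57.1% and 65%. These are matches of letters, and binding was not measured.

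In naïve animals, genes from glucose uptake to the citric acid cycle were lower in WAR. Of the 40 members, 20 were lower in WAR N than in Wistar N, 3 were higher (*Pgam1*, *Ldha* and *Idh3b*) and 17 did not pass the test (limma, adjusted p under 0.05 over all genes). Over all 14506 genes, 9.38% were called lower and 11.6% higher, and the member list was chosen with earlier results of these data known. With only the naïve arrays in the fit, which then does not share the spread of the stimulated ones, 12 members were lower and 0 higher, beside 2.82% and 3.24% of all genes. The median log2 difference of the members was −0.39, beside 0.02 for all genes. In 15 members all 4 WAR N arrays lay below all 4 Wistar N arrays, as did 5.51% of all genes, and in no member did they all lie above, as did 7.93% of all genes. Lower members stood at every step except lactate dehydrogenase and the pyruvate dehydrogenase kinases, and the higher ones were single genes of lower glycolysis, lactate dehydrogenase and the citric acid cycle.

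**Figure D1:**
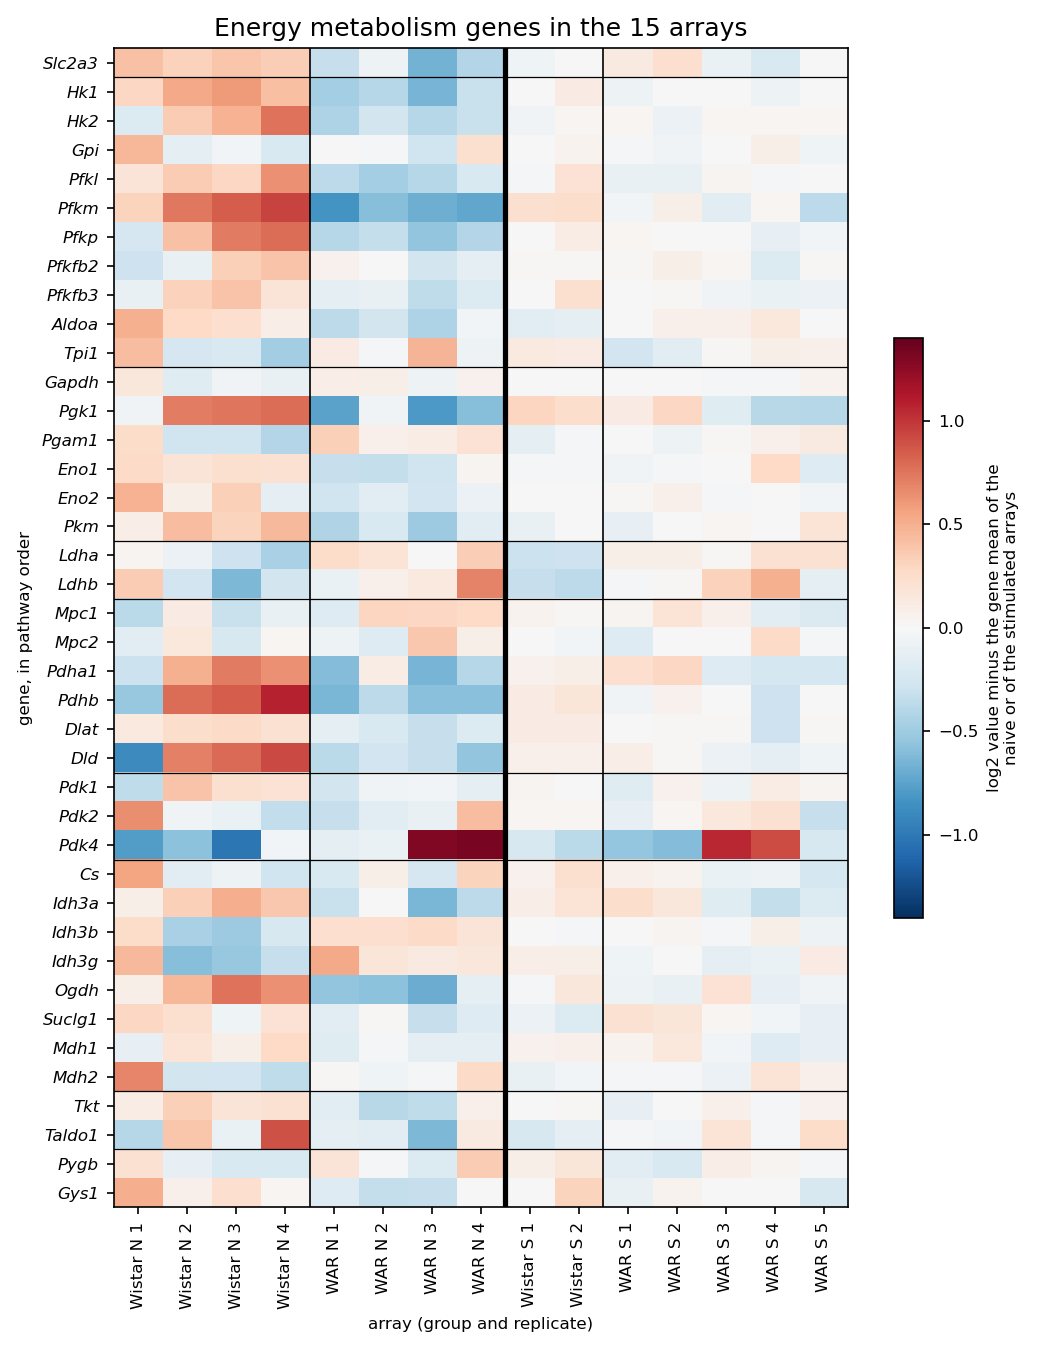
Log2 value of each of the 40 genes (rows, in pathway order, with lines between steps) in each array (columns), after subtraction of that gene's mean over the 8 naïve arrays (left of the thick line) or the 7 stimulated arrays (right of it). Red is above and blue below that mean. The WAR N columns are mostly blue and Wistar N 2 to 4 mostly red in the rows that were called lower, Wistar N 1 differs from the other Wistar N arrays in rows such as *Dld* and *Mdh2*, and the stimulated columns are paler apart from *Pdk4*.

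Markers of several cell types moved with the strains as well. Calls over all genes were 9.38% lower and 11.6% higher in naïve animals, and 0.414% in either direction in stimulated animals. Of 15 astrocyte markers, 8 were lower and 1 higher in WAR N, with a median log2 difference of −0.40, and their mean log2 level per array ran from 10.26 to 10.47 over the WAR N arrays and from 10.68 to 10.84 over those of Wistar N. In stimulated arrays none of the 15 was called (limma, 7 at an unadjusted p under 0.05), the median was −0.26, and the mean level was 10.46 to 10.68 in WAR S and 10.86 in both Wistar S arrays. Of 18 endothelial markers, 10 were higher in WAR N and 5 in WAR S, and their mean level was 7.84 to 8.25 over the WAR N arrays, against 7.10 to 7.95 in Wistar N, whose replicate 1 had the highest. Of 14 markers of microglia and macrophages, 5 were higher in WAR N, with mean levels of 7.93 to 8.09 against 7.48 to 7.70. Of 18 neuron markers, 6 were lower and 1 was higher in WAR N, with overlapping mean levels of 10.11 to 10.48 and 10.32 to 10.71. The median log2 difference of the neuron markers was −0.01, and 9 of the 18 were negative. Against Wistar N replicate 1 the median difference was −0.29 for the astrocyte, 0.15 for the endothelial, 0.32 for the microglial and −0.23 for the neuron markers. No marker was at 0, and the part of these cell types in the values of the 40 genes was not tested.

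Glucose enters neurons mainly through the transporter encoded by *Slc2a3*. Its log2 values were 8.64, 8.89, 8.31 and 8.55 in WAR N, and 9.38, 9.28, 9.35 and 9.30 in Wistar N. The groups did not overlap, and the difference was −0.73 (SE 0.114; limma, adjusted p = 0.0013), or 1.66-fold lower in WAR N.

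*Hk1* encodes the main hexokinase of the brain, which traps glucose in the cell as glucose phosphate. It read 9.70, 9.78, 9.53 and 9.87 in WAR N, and 10.47, 10.71, 10.78 and 10.60 in Wistar N. Every WAR N array was below every Wistar N array by a wide margin, with a log2 difference of −0.92 (SE 0.081), 1.89-fold lower in WAR N (limma, adjusted p = 3.49e-05). It had the smallest p of the 40 members and ranked 8 among all genes. In the exact 2-sided permutation test its p was 0.0286, the smallest that 4 arrays against 4 allow. *Hk2*, the second hexokinase and a gene of low signal at percentile 23.6, read 5.57, 5.74, 5.60 and 5.69 in WAR N, against 5.81, 6.36, 6.50 and 6.76 in Wistar N. The groups did not overlap, but Wistar N replicate 1 lay only just above WAR N, and the log2 difference was −0.71 (SE 0.142; limma, adjusted p = 0.00433).

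Phosphofructokinase makes the committed step of glycolysis, and the genes of all 3 of its subunits were lower in WAR N. The muscle-type subunit gene, *Pfkm*, had log2 values of 10.68, 10.93, 10.83 and 10.80 in WAR N, and of 11.83, 12.26, 12.37 and 12.47 in Wistar N. Its log2 difference, −1.42 (SE 0.128), was the lowest of the 40 members, 2.68-fold lower in WAR N (limma, adjusted p = 3.63e-05), and the groups lay far apart. The liver-type gene *Pfkl* read 8.50, 8.38, 8.46 and 8.65 in WAR N and 9.04, 9.22, 9.15 and 9.50 in Wistar N, again without overlap. This came to a log2 difference of −0.73 (SE 0.094; limma, adjusted p = 0.000452). For *Pfkp*, the platelet-type gene, the values were 10.51, 10.58, 10.36 and 10.50 in WAR N against 10.68, 11.31, 11.63 and 11.69 in Wistar N. Here the lowest Wistar array, replicate 1, was close to WAR N, and the log2 difference was −0.84 (SE 0.163; limma, adjusted p = 0.00367).

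The rest of upper glycolysis was mixed. *Aldoa*, the aldolase gene, read 12.04, 12.14, 11.96 and 12.36 in WAR N and 12.89, 12.67, 12.63 and 12.49 in Wistar N, with no overlap and a log2 difference of −0.55 (SE 0.094; limma, adjusted p = 0.00205). *Pfkfb3*, whose enzyme makes an activator of phosphofructokinase, was lower by a log2 difference of −0.39 (limma, adjusted p = 0.0124), whereas *Pfkfb2*, of the same family, differed by −0.17 (95% confidence interval −0.45 to 0.12) and was not called. *Gpi*, the isomerase gene between hexokinase and phosphofructokinase, and *Tpi1*, the triose phosphate isomerase gene, were not called either, with log2 differences of −0.04 (−0.32 to 0.24) and 0.25 (−0.11 to 0.61). In all, 7 of the 10 genes of this step were lower and none was higher.

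In lower glycolysis, 4 of 6 genes were lower and 1 was higher. *Pkm* encodes pyruvate kinase, the last enzyme of glycolysis. Its log2 values were 11.67, 11.87, 11.59 and 11.94 in WAR N and 12.19, 12.52, 12.41 and 12.54 in Wistar N, which do not overlap, and the difference was −0.64 (SE 0.098; limma, adjusted p = 0.00113). *Pgk1*, the phosphoglycerate kinase gene, had a larger log2 difference, −1.10 (SE 0.213; limma, adjusted p = 0.00369), but its groups overlapped, since WAR N replicate 2, at 11.08, was above Wistar N replicate 1, at 11.07. The enolase genes *Eno1* and *Eno2*, of which the second is the neuronal form, were lower by log2 differences of −0.45 and −0.38 (limma, adjusted p = 0.00651 and 0.0196). *Pgam1*, which encodes phosphoglycerate mutase, was higher by 0.36 on the log2 scale (limma, adjusted p = 0.0446), a call that held in only 5 of 28 alternative settings. *Gapdh*, often used as a reference gene, differed by 0.08 (95% confidence interval −0.07 to 0.23) and was not called.

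Of the lactate dehydrogenase genes, *Ldha* was called higher and *Ldhb* was not called. *Ldha*, whose subunit is that of tissues that make lactate, read 10.76, 10.69, 10.50 and 10.85 in WAR N and 10.55, 10.42, 10.21 and 10.04 in Wistar N. The values were mostly higher in WAR N, with 1 WAR N array inside the Wistar N range, and the log2 difference was 0.39 (SE 0.104; limma, adjusted p = 0.0165). A second, dimmer and more variable probe set of *Ldha* differed by −1.14 (SE 0.887), so the direction rests on the choice of the probe set. *Ldhb*, the subunit of tissues that use lactate, had a log2 difference of 0.40 (95% confidence interval −0.04 to 0.84), and of −0.16 against Wistar N replicate 1.

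**Figure D2:**
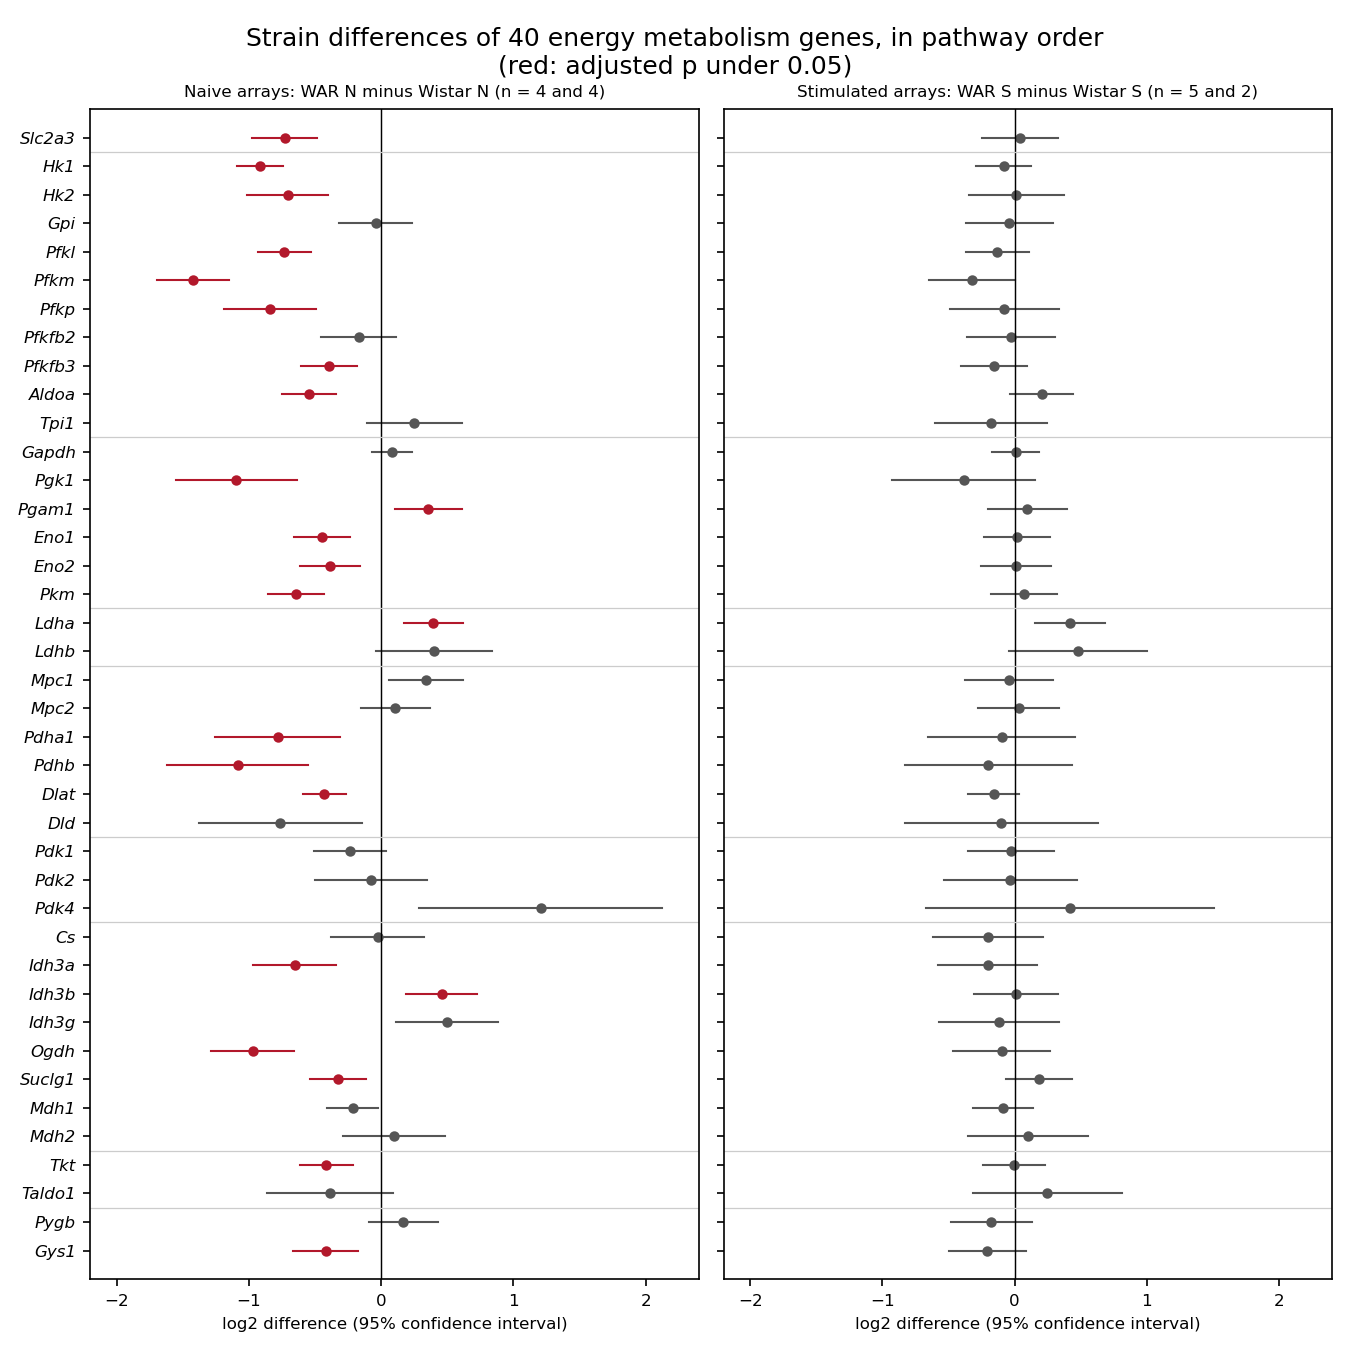
Log2 difference between WAR and Wistar (points) with its 95% confidence interval (bars) for the 40 genes in pathway order, in naïve arrays (left) and stimulated arrays (right), from the limma fit over all 15 arrays. Red marks an adjusted p under 0.05, which 23 genes reached in naïve arrays and none in stimulated arrays.

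Of the pyruvate dehydrogenase complex, 3 of the 4 member genes were lower in WAR N. *Pdhx*, a further subunit gene of the complex outside the member list, was not called, with a log2 difference of −0.0038 (limma, adjusted p = 0.974). *Dlat* encodes the acetyl-transferring core, and it read 9.57, 9.48, 9.37 and 9.50 in WAR N and 9.83, 9.94, 9.96 and 9.91 in Wistar N. The arrays were tight and did not overlap, with a log2 difference of −0.43 (SE 0.076; limma, adjusted p = 0.00233). *Pdha1* and *Pdhb*, which encode both chains of the decarboxylase, had log2 differences of −0.78 and −1.08 (limma, adjusted p = 0.0227 and 0.00829) and overlapping groups. For *Pdhb* the Wistar N values were 9.20, 10.51, 10.57 and 10.80, beside 9.09, 9.36, 9.15 and 9.15 in WAR N, so the difference was carried by Wistar N replicates 2, 3 and 4. *Dld*, the dehydrogenase chain shared with other complexes, was not called, at −0.76 (SE 0.288; limma, adjusted p = 0.0742), and its Wistar N replicate 1, at 9.13, lay below all WAR N arrays while the other 3 were at 10.74 to 10.95. The mitochondrial pyruvate carrier genes *Mpc1* and *Mpc2* were not called, at 0.34 (0.06 to 0.62) and 0.11 (−0.16 to 0.37).

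Pyruvate dehydrogenase kinases switch the complex off by phosphorylation, and of their 4 genes only *Pdk3*, which is not among the members, was called, with a log2 difference of 0.56 in naïve animals (limma, adjusted p = 0.00296) and of 0.36 against Wistar N replicate 1. *Pdk1* and *Pdk2* differed by −0.24 (−0.51 to 0.04) and −0.08 (−0.50 to 0.35) on the log2 scale. *Pdk4*, the kinase gene known to respond to fasting and fat use, had the highest positive difference of all members, 1.20 (0.29 to 2.12), but missed the threshold (limma, adjusted p = 0.0605). Its values were 7.74, 7.77, 9.16 and 9.19 in WAR N and 7.08, 7.29, 6.86 and 7.82 in Wistar N. The WAR N values followed the sample descriptions, which carry running numbers of 2 sets that no source calls batches. Those of Wistar N did not divide in this way, at 7.08 and 7.82 in the first set and 7.29 and 6.86 in the second. The WAR N arrays of the first set were inside the Wistar N range and those of the second set well above it, and the difference was 0.30 within the first set and 2.11 within the second. WAR S showed the same division, at 8.18, 8.11 and 8.49 in the first set and 9.77 and 9.62 in the second. These values of *Pdk4* were set out after they had been seen.

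Of the 8 citric acid cycle genes measured, 3 were lower and 1 was higher in WAR N. *Ogdh* encodes the first component of the 2-oxoglutarate dehydrogenase complex. It read 10.26, 10.24, 10.12 and 10.69 in WAR N and 10.90, 11.28, 11.58 and 11.46 in Wistar N, without overlap, a log2 difference of −0.97 (SE 0.145), or 1.96-fold lower (limma, adjusted p = 0.00107). The subunits of the NAD-dependent isocitrate dehydrogenase did not move together. *Idh3a*, the catalytic subunit, was lower by a log2 difference of −0.65 with no overlap (limma, adjusted p = 0.0074), *Idh3b* was higher by 0.46 (limma, adjusted p = 0.0195), and *Idh3g* was not called at 0.50 (limma, adjusted p = 0.0638). *Suclg1*, which encodes a chain of succinyl-CoA ligase, was lower by a log2 difference of −0.33 (limma, adjusted p = 0.0302), a call that held in 17 of 28 alternative settings. The genes of citrate synthase (*Cs*) and of the cytosolic and mitochondrial malate dehydrogenases (*Mdh1* and *Mdh2*) were not called, at −0.03 (−0.38 to 0.32), −0.22 (−0.41 to −0.02) and 0.10 (−0.29 to 0.48).

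At the side branches, 1 gene of each pair was lower. *Tkt*, the transketolase gene of the pentose phosphate pathway, and *Gys1*, the glycogen synthase gene, had log2 differences of −0.42 each with no overlap (limma, adjusted p = 0.00734 and 0.0199). *Taldo1*, the transaldolase gene, and *Pygb*, the brain glycogen phosphorylase gene, were not called, at −0.39 (−0.87 to 0.09) and 0.17 (−0.09 to 0.43).

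**Figure D3:**
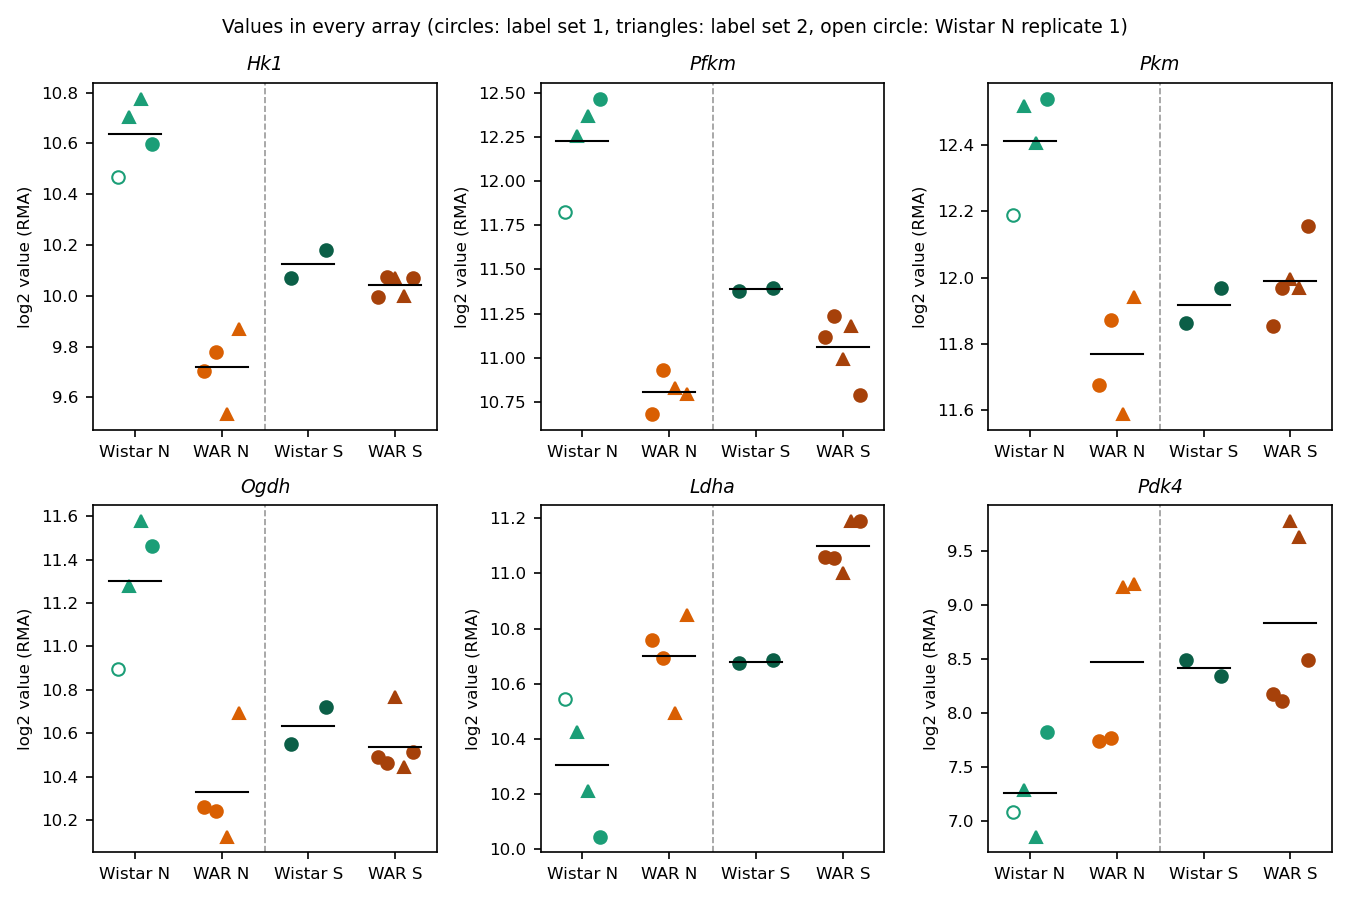
Log2 values of *Hk1*, *Pfkm*, *Pkm*, *Ogdh*, *Ldha* and *Pdk4* in every array, by group; black lines are group means, circles and triangles the first and second set of label numbers, and the open circle Wistar N replicate 1. Naïve and stimulated arrays, left and right of the dashed line, were read as normalized separately and are not compared, and the vertical axes do not start at 0. *Hk1*, *Pfkm*, *Pkm* and *Ogdh* do not overlap between WAR N and Wistar N, *Ldha* does not overlap between WAR S and Wistar S, and *Pdk4* is high in the WAR triangles.

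Set against Wistar N replicate 1 alone, the array that lay with WAR N, the median difference of the members stayed below 0 but was smaller. All 20 members called lower had a negative difference from it, as did 83% of the 1360 genes called lower in all, and in 17 of the 20 every WAR N array was below it, as in 61.2% of those genes. Both counts are in part fixed by the choice of genes already called lower, with this array among the Wistar N arrays. The median difference of the 40 members was −0.26, beside −0.0016 for all genes. The fit with this array as the only naïve Wistar control called 9 members lower and 1 higher, against 7.16% and 4.4% of all genes. The lower ones were *Slc2a3*, *Hk1*, *Pfkl*, *Pfkm*, *Aldoa*, *Eno2* and *Gys1*, which belonged to the 20, and *Gpi* and *Mdh2*, which did not.

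The size of the difference depended on the Wistar array for some genes far more than for others. *Hk1* differed by −0.75 from Wistar N replicate 1 and by −0.97 from the mean of the other 3, and *Pfkm* by −1.02 and −1.56. *Ogdh* differed by −0.57 and −1.11, *Pkm* by −0.42 and −0.72, and *Dlat* by −0.35 and −0.46. *Aldoa* and *Slc2a3* were further from replicate 1, at −0.77 and −0.78, than from the others, at −0.47 and −0.71. Of these genes, *Ogdh*, *Pkm* and *Dlat* did not pass the test against replicate 1 alone (limma, adjusted p = 0.0717, 0.0728 and 0.0822). *Pdhb*, by contrast, differed by −0.01 from replicate 1 and by −1.44 from the others, *Pdha1* by −0.09 and −1.01, *Hk2* by −0.16 and −0.89, and *Pfkp* by −0.19 and −1.06. *Dld* reversed, at 0.52 against replicate 1 (the 1 member called higher there) and −1.19 against the others. Of the 3 members called higher, *Pgam1* and *Idh3b* had differences of −0.08 and −0.03 from replicate 1, and only *Ldha* stayed positive, at 0.15. Without replicate 1, 24 members were called lower and 7 higher, while the shares over all genes rose to 18.5% and 22.6%.

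**Figure D4:**
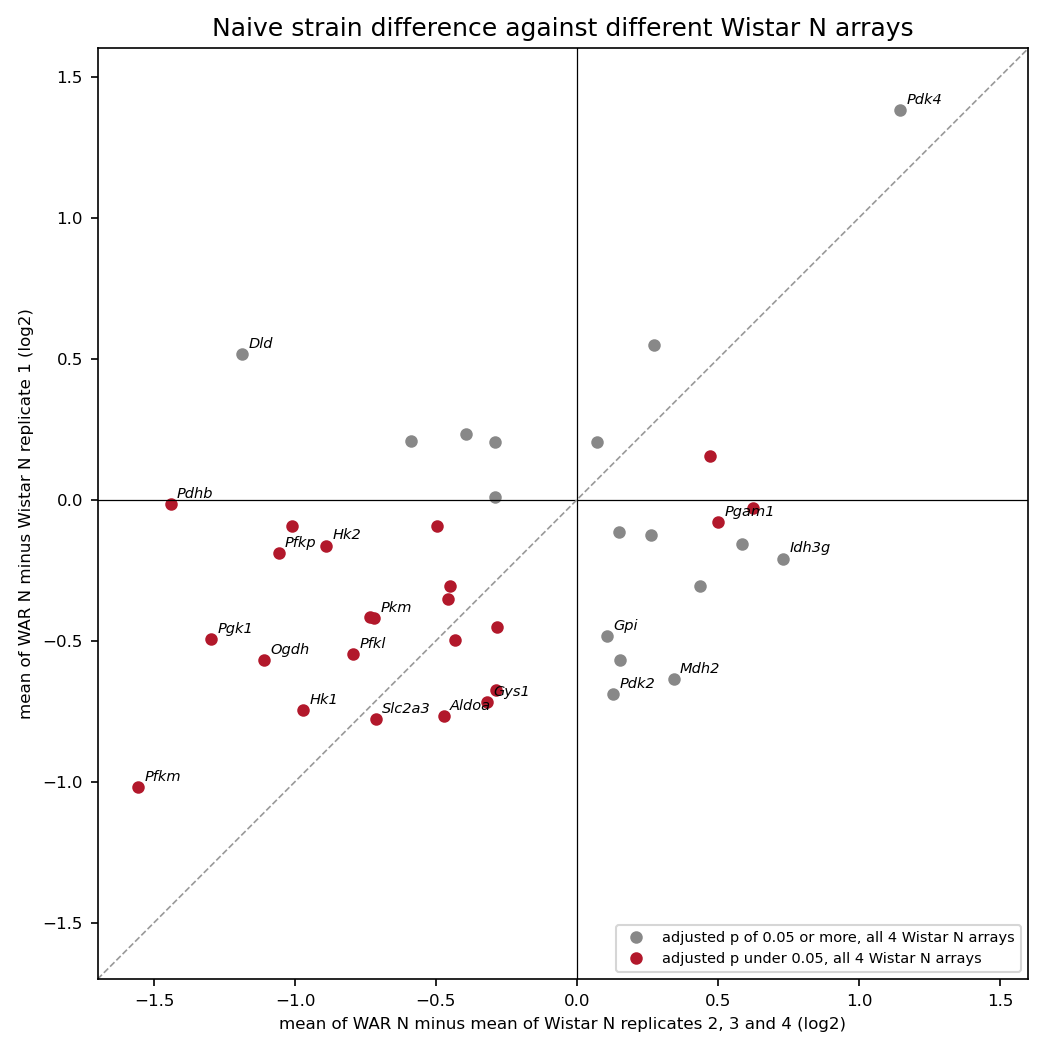
Each point is 1 of the 40 genes, with the mean of the WAR N arrays minus the mean of Wistar N replicates 2, 3 and 4 on the horizontal axis and minus Wistar N replicate 1 on the vertical axis (log2). Red marks an adjusted p under 0.05 with all 4 Wistar N arrays, and the dashed line marks equal differences. *Pfkm* and *Hk1* are well below 0 on both axes, *Pdhb* only on the horizontal axis, and *Dld* lies on opposite sides of 0.

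The difference was also taken within each set of label numbers. *Hk1* was lower in WAR N by −0.79 in the first set and −1.04 in the second on the log2 scale, and *Pfkm* by −1.34 and −1.50. *Slc2a3*, *Pfkl*, *Pkm* and *Ogdh* kept their sign in both, at −0.57 and −0.89, −0.83 and −0.63, −0.59 and −0.70, and −0.93 and −1.02. The first set has 2 arrays of each strain, of which 1 is Wistar N replicate 1, and in it 3 members were called lower and none higher, beside 0.758% and 0.738% of all genes. In the second set 17 were lower and 5 higher, beside 13.6% and 12.4% of all genes.

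In sound-stimulated animals, no member passed the test. The count was 0 of 40 in either direction (limma, adjusted p under 0.05), and 2 members had an unadjusted p under 0.05, while 0.414% of all genes were called. The log2 differences ran from −0.39 for *Pgk1* to 0.48 for *Ldhb*, with a median of −0.04, beside 0.01 for all genes. *Hk1* read 9.996, 10.07, 10.07, 9.999 and 10.07 in WAR S and 10.07 and 10.18 in Wistar S. These nearly coincide, with a log2 difference of −0.08 (95% confidence interval −0.29 to 0.12). The identical value 10.0713 stands in Wistar S replicate 1 and in WAR S replicates 3 and 5, so the closeness is in part that of a repeated value. *Hk2* read 6.10, 5.99, 6.11, 6.10 and 6.10 in WAR S and 6.03 and 6.10 in Wistar S, a log2 difference of 0.01 (−0.35 to 0.37). A miss here does not show equal levels, since Wistar S has 2 arrays and values recur between arrays, as for *Hk1* and *Hk2*.

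Both members with an unadjusted p under 0.05 kept the direction they had in naïve animals. *Pfkm* read 11.12, 11.24, 10.99, 11.18 and 10.79 in WAR S, all below the Wistar S values of 11.38 and 11.40. The log2 difference was −0.32 (limma, unadjusted p = 0.0492, adjusted p = 0.726). *Ldha* read 11.06, 11.06, 11.00, 11.19 and 11.19 in WAR S, all above 10.67 and 10.69 in Wistar S, with a log2 difference of 0.42 (limma, unadjusted p = 0.00414, adjusted p = 0.242). In the exact permutation test *Ldha* had p = 0.0476, the smallest that 5 arrays against 2 allow, and *Pfkm* had p = 0.0952. *Aldoa* also had p = 0.0476 in the permutation test, with every WAR S array above both Wistar S arrays. Its log2 difference of 0.20 (limma, unadjusted p = 0.0864) was opposite in sign to that in naïve animals, −0.55. When the model held no naïve arrays, *Ldha* was called (limma, adjusted p = 0.0331), and with weights for the arrays *Ldha*, *Aldoa* (0.19) and *Pfkm* were called. The dimmer probe set of *Ldha*, left out of these values, had the opposite sign here too, at −2.85 (SE 1.05).

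The difference between the strain effects, the one with sound minus the one without, was called for 1 member, *Hk1*, and for 0.103% of all genes. Its value was 0.83 on the log2 scale (SE 0.126; limma, adjusted p = 0.0271), and it ranked 6 among all genes. *Pfkm* had a larger value, 1.10 (SE 0.198), that just missed the threshold (limma, adjusted p = 0.0514). Over 26 alternatives the *Hk1* value ran from 0.66 to 0.89 and its adjusted p from 0.00013 to 0.317, and 13 of them kept the call. Without Wistar N replicate 1 the count of members rose to 16 with a positive and 4 with a negative value, and 2956 of all genes were called. This count thus turns on the array that lay with WAR N. Each value subtracts a naïve strain difference from a stimulated one, and these kinds of array were read as normalized separately. Repeated values, present for *Hk1* too, also make the stimulated spread smaller, which the fit shares. The part of these features in the *Hk1* value was not tested.

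*Hk1* was then set against the other 39 members, as a description. In naïve arrays its log2 difference of −0.92 stood beside a median of −0.38 for the others, and *Pfkm*, *Pgk1*, *Pdhb* and *Ogdh* had lower values. In stimulated arrays it ranked 17 from the lowest, at −0.08 beside a median of −0.03. *Hk1* minus the median of the other 39 in the same array was −0.21, −0.11, −0.05 and −0.35 in Wistar N and −0.67, −0.92, −0.83 and −0.66 in WAR N. The naïve groups were thus apart on this scale too, Wistar N replicate 1 included. In stimulated arrays it was −0.68 and −0.59 in Wistar S and −0.94, −0.91, −0.72, −0.58 and −0.49 in WAR S, where the groups overlapped.

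The lower values did not extend to all genes of the pathway. Over all genes, 9.38% were called lower and 11.6% higher in naïve animals, and 0.414% in either direction in stimulated animals. These shares stand beside the counts of each list below. Of 48 other genes of glycolysis, pyruvate metabolism and the citric acid cycle, 40 were measured. In naïve animals 5 of them were lower and 2 higher, with a median log2 difference of 0.02. These genes were not matched to the members in signal, so their median is not a like-for-like comparison with that of the members. Those with the smallest p were *Aco1* (−0.69), *Pdk3* (0.56), *Sdha* (−0.68) and *Pdp1* (0.48), which encode an aconitase, a pyruvate dehydrogenase kinase, a succinate dehydrogenase subunit and a pyruvate dehydrogenase phosphatase. Against Wistar N replicate 1 they differed by −0.35, 0.36, −0.19 and 0.66. The other lower ones were *Got1* (−0.72), *Bpgm* (−0.58) and *Me1* (−0.56), at −1.13, −0.24 and 0.12 against that array. None of the 40 was called in stimulated animals, where 4 had an unadjusted p under 0.05 (limma). Of 13 transporters of glucose and lactate, *Slc2a5*, a fructose transporter gene typical of microglia, was higher in WAR N (0.45, and 0.61 against Wistar N replicate 1) and WAR S (0.88), and *Bsg*, which encodes a partner of the lactate transporters, was higher in WAR N (1.03) but differed by −0.26 from Wistar N replicate 1. Of 21 further pentose phosphate and glycogen genes, *Gyg1* (0.90) and *Pgm2l1* (0.61) were higher and *Pgm1* (−1.26) and *Pygm* (−0.67) lower in WAR N, and none was called in stimulated animals, with 3 at an unadjusted p under 0.05 (limma). Against Wistar N replicate 1 the first 3 of these were close to 0, at 0.11, 0.04 and −0.08, and *Pygm* was at −0.54. Thiamine is the source of the cofactor of pyruvate dehydrogenase, 2-oxoglutarate dehydrogenase and transketolase. Of the 3 thiamine genes measured, the transporter gene *Slc19a3* was higher in WAR N (2.57, and 1.13 against Wistar N replicate 1) and in WAR S (2.46), and *Thtpa* was lower in WAR N (−1.22, but −0.02 against that array). Of 15 targets of the hypoxia-inducible factor outside the pathway, *Bnip3* was higher in WAR N (0.84, and 0.06 against that array) and no other was called.

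Of the 40 members, 8 had more than 1 probe set. The 3 probe sets of *Pkm* gave naïve log2 differences of −0.77 to −0.64, the 3 of *Eno1* −0.59 to −0.45, those of *Pdha1* −0.83 and −0.78, and those of *Dlat* −0.44 and −0.43. The 16 of *Gapdh* ran from −0.06 to 0.08 and those of *Cs* from −0.03 to 0.11. Probe sets agreed in direction for *Pkm*, *Eno1*, *Pdha1* and *Dlat*, while the second probe set of *Pgam1* was near 0, at 0.01, and that of *Ldha* had the opposite sign. Several of these genes, *Gapdh* above all, have near-identical pseudogenes in the genome, and the probe sets may pick up their transcripts.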

How the data were processed

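Gene expression was measured in the IC of WAR and Wistar rats on Affymetrix rat gene arrays, 15 in all, grouped by the labels. The authors deposited log2 values made with RMA, in which background correction and quantile normalization precede the summary of a probe set's probes; no version of it is given in the sources used here. Precision is limited by the number of arrays. No value was missing, and the repeated values make the spread of the stimulated arrays smaller. The GEO labels were followed where the paper's text gives other animal numbers. Of 29214 probe sets, 15310 carried 1 gene symbol in the platform's annotation, 323 several and 13581 none; the brightest per gene was kept, and all 40 members matched GRCr8 by gene ID.

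Strains were compared with limma 3.58.1 (R 4.3.3), in which lmFit and eBayes used 1 mean for each group and all 15 arrays shared the spread. P-values were adjusted by Benjamini-Hochberg over 14506 genes, and a gene was called at 0.05. Single genes were also tested with exact 2-sided permutation. The step was tested on simulated data, drawn independently with the same spread in every group. The simulated arrays held no repeated values and no Wistar N array lying with WAR N, so that test does not cover these features. Promoter windows are from RefSeq, and no genome build is named for the arrays in the sources used here. Values are given in every array for *Hk1*, *Hk2* and, by smallest p, up to 10 called members whose groups did not overlap, and for others only after they had been seen. The members and gene lists were chosen with earlier results of these data known. Alternatives were other models, blocks, label sets, normalizations, filters, probe set rules and each array left out. Wistar N replicate 1 alone was added after seeing the data. The paper's SAM test, the hamster data, RT-qPCR and immunohistochemistry are not analysed here.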

Additional observations from a re-analysis of the deposited data

Results flagged for a closer look

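In 120 groups of 4 or 5 arrays, 11 held an array far from the others by Dixon's criterion, where chance gives about 1 in 20 groups. This rate does not apply to WAR S arrays with repeated values, which narrow the range of the others, as in *Hk2*, *Pfkfb2*, *Gapdh* and *Dlat*. Of these, 3 were Wistar N replicate 1, which read 11.07 for *Pgk1* (the others 11.84 to 11.91), 9.13 for *Dld* (10.74 to 10.95) and 12.58 for *Mdh2* (11.54 to 11.65). Among WAR N arrays, replicate 1 read 8.94 for *Mpc1* (9.40 to 9.42) and 12.10 for *Idh3g* (11.70 to 11.75), and replicate 4 read 12.32 for *Eno1* (11.95 to 12.00). Among WAR S arrays, replicate 2 read 5.99 for *Hk2* (6.10 to 6.11), replicate 3 read 10.77 for *Ogdh* (10.45 to 10.51), replicate 4 read 8.21 for *Pfkfb2* (8.41 to 8.48) and 9.36 for *Dlat* (9.66 to 9.67), and replicate 5 read 13.83 for *Gapdh* (13.76 to 13.77).

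The strain effect differed between stimulated and naïve arrays for *Hk1*, with a difference of 0.83 on the log2 scale (limma, adjusted p = 0.0271), and 13 of 26 alternatives kept this call. The stimulated and naïve arrays were read as normalized separately, and the part of this in the value was not tested.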

How the results depend on the processing

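In naïve animals, the 20 lower members became 12 when the model held only the compared groups, 3 within label set 1 and 9 against Wistar N replicate 1 alone, whose median was −0.26. The 3 higher members became 0 with only the compared groups, 0 within label set 1, 5 with the label set as a block, within label set 2 and with array weights, 1 with the mean over probe sets, and 1 against Wistar N replicate 1 alone. With each array left out in turn, 16 to 24 were lower and 0 to 7 higher, while 1987 to 5968 of all 14506 genes were called. The 24 and 7 and the 5968 came from the same fit, without Wistar N replicate 1. Among the 23 called members, signs turned for *Ldha* (−0.37, mean over probe sets) and, against Wistar N replicate 1 alone, *Pgam1* (−0.079) and *Idh3b* (−0.031). Of 669 values under alternatives, all of those called members and of the *Hk1* difference between strain effects, 558 kept their direction and call, 108 kept only the direction and 3 reversed. Among the lower members the call held least often for *Suclg1*, in 17 of 28 settings, *Pdha1* and *Gys1*, in 20 each, and *Eno2*, in 21. Members not called changed sign more often, up to 11 of 17 in naïve animals (against Wistar N replicate 1 alone), 7 of 40 in stimulated animals and 14 of 39 for the difference between strain effects. In stimulated animals, only the compared groups gave 1 higher member, and array weights 1 lower and 2 higher.

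For the difference between strain effects, the 1 higher member became 2 with the label set as a block, 0 within label set 1 and 0 with trend and robust eBayes. The count was 19 with array weights (and 5 lower), 3 after cyclic loess, and 2 with centred arrays, without the dimmest genes or with the mean over probe sets. Over all genes this difference was called for 15 in the main fit, 3353 with array weights, 42 after cyclic loess and 2956 without Wistar N replicate 1. Leaving out arrays other than Wistar S gave 0 to 16 higher and 0 to 4 lower members, beside 4 to 2956 of all genes. Replicate numbers did not pair the arrays (correlations of −0.31 to 0.06), and a fit with the replicate block called 18 lower and 3 higher in naïve, 0 in stimulated animals and 0 for the difference between strain effects. Over all genes, calls fell from 3037 to 879 in naïve animals with only the compared groups, 217 within label set 1 and 1677 against Wistar N replicate 1 alone, and rose to 5968 without that array and 4667 with array weights. The 60 calls in stimulated animals became 274 with only the compared groups, 1433 with array weights, 14 within label set 1, 16 with the replicate block, 261 without Wistar N replicate 1, and 13 and 7 without Wistar S replicates 1 and 2. Label set 2 holds no Wistar S array and gave no value there, only the compared groups gave none for the difference, and the filter on dim genes removed *Hk2*. The cause was not tested.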
